A study of Mus musculus with 4 samples.

Results

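The genes described here are 10 transcription factor genes that divide the embryonic neural tube into domains from back to belly, or in 1 case from front to rear: Pax3, Pax7, Pax6, Irx3, Irx5, Dbx1, Olig2, Nkx6-1, Nkx2-2 and Gbx2. They were chosen by symbol from a table of 23235 genes, and all 10 were found in it. The data are RNA-seq, after removal of ribosomal RNA, of 4 mouse cultures of strain 129S4/SvJae, with 1 library in each group. DKO_NP and WT_NP were neural progenitor cells (NPCs) at day 6, which had spent 4 days as embryoid bodies (aggregates in which ES cells begin to differentiate) and then 2 days in retinoic acid, from DNMT3A/B DKO and wild-type cells. DKO_ES and WT_ES were the embryonic stem (ES) cells they came from, at day 0, grown with serum and leukemia inhibitory factor. DKO cells lack both de novo DNA methyltransferases, and wild-type cells were of the J1 background. The ES cells had been kept on feeder cells in earlier passages. No sorting of the NPC cultures is recorded, and how many DKO clones were used is not stated in the labels.

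The neural tube is patterned by opposing signals. Bone morphogenetic protein and Wnt signals come from the roof plate at its dorsal edge, and Sonic hedgehog comes from the floor plate and notochord at its ventral edge. Each level of signal switches on a set of transcription factors, and neighbouring factors repress each other, so that each progenitor domain carries its own combination. Pax3 and Pax7 mark the dorsal domains, Pax6, Irx3, Irx5 and Dbx1 the intermediate ones, and Olig2, Nkx6-1 and Nkx2-2 the ventral ones that give rise to motor neurons and ventral interneurons. Retinoic acid, the agent used here, promotes several of the intermediate factors and gives neural cells a hindbrain and cervical character.

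The promoters of the members are shown because the study concerns CpG islands and the enzymes that methylate CG dinucleotides. RefSeq (GRCm38.p6) promoters were matched for 8 of the 10 genes, with 9 windows of 250 bases before a transcription start, since Pax6 has more than 1. Those of 4 genes follow, the dorsal Pax7, the intermediate Irx3 and the ventral Nkx6-1 and Nkx2-2, 5′ to 3′ on the gene's strand, with CG dinucleotides in capitals. They lie at chr4:139832969-139833218 (minus strand), chr8:91801655-91801904 (minus), chr5:101664712-101664961 (minus) and chr2:147186403-147186652 (minus).
Pax7: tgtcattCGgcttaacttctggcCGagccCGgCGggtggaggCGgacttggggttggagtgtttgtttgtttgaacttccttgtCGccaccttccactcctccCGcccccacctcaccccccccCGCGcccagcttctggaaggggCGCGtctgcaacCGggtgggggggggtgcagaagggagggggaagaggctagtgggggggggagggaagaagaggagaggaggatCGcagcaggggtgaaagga
Irx3: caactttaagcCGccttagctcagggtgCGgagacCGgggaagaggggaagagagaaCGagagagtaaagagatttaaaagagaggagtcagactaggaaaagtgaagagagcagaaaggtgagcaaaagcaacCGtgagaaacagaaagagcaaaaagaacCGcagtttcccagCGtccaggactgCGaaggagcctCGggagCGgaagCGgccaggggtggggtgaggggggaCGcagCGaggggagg
Nkx6-1: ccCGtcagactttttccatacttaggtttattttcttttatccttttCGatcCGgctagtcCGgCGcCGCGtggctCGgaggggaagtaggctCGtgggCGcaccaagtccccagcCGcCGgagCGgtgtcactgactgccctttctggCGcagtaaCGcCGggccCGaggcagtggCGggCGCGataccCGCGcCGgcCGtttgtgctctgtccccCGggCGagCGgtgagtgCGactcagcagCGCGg
Nkx2-2: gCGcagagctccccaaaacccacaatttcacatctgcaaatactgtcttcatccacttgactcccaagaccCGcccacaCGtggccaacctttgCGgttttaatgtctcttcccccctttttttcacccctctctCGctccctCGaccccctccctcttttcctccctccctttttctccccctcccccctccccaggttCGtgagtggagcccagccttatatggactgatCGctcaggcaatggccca
The window of Nkx6-1 held 30 CG dinucleotides, those of Pax7 and Irx3 13 each, and that of Nkx2-2 8. Across all 32851 promoter windows of this length the median was 6, and 43.0% held 8 or more, so all 9 member windows were above the median. Of the windows not printed, Olig2 had 22, Gbx2 18, both Pax6 windows 15 and Dbx1 12. CG number did not order the genes by level, since Nkx6-1, with the most, and Nkx2-2, with the fewest, were both below 1 FPKM in all 4 libraries. The motif GACCACCCA, a sequence bound by the Gli factors of the hedgehog pathway, was searched on both strands and was in no member window, against 0.225% of all windows. A direct repeat bound by retinoic acid receptors was likewise in none, against 0.00913% of all windows. The letters TATAAA were in the windows of Dbx1 and Olig2, against 12.4% of all windows.

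Levels are the authors' FPKM (fragments per kilobase of transcript, relative to all mapped fragments), a scale per length on which genes can be compared. The targeted genes were lower in both DKO libraries. Dnmt3a stood at 4.14 FPKM in DKO_NP and 17.2 in WT_NP, and at 12.3 in DKO_ES and 35.3 in WT_ES. Dnmt3b stood at 5.22 FPKM in DKO_NP and 9.98 in WT_NP, and at 13.9 in DKO_ES and 140.3 in WT_ES. The 10 neural progenitor markers, among them Sox1 and Nes, summed to 327 FPKM in DKO_NP and 99.6 in WT_NP, against 292 in DKO_ES and 303 in WT_ES, where Sox2 makes up most of the sum. The 10 pluripotency markers summed to 359 FPKM in DKO_NP and 90.6 in WT_NP, against 8265 in DKO_ES and 7634 in WT_ES. Approximate read denominators, read from the steps of low values, were 25.9 M reads in DKO_NP, 37.5 M in WT_NP, 15.5 M in DKO_ES and 14.3 M in WT_ES (M, mega). With 1 library per group no difference here has a replicate check and none was tested. Intervals are 95% exact (Clopper-Pearson) intervals of approximate reads and cover counting error only. Fold differences are between libraries after median scaling, in which a library's divisor is the median, over genes, of its level relative to the geometric mean of the 4 libraries. A gene was called higher or lower at a log2 ratio of 1 or more in size (2-fold) on the scale of scaled FPKM + 1, which understates differences of low genes, if it reached 1 FPKM in either library.

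Along the dorsoventral axis the NPC libraries held dorsal and intermediate factors and very little of the ventral ones. In both NPC libraries Pax6 and Irx3 were the most abundant of the 9 dorsoventral genes, and Olig2, Nkx6-1 and Nkx2-2 were each below 1 FPKM. Pax3 and Pax7 summed to 17.5 FPKM in DKO_NP and 4.07 in WT_NP, against 0.0696 in DKO_ES and 0.339 in WT_ES. The 4 intermediate genes summed to 74.0 FPKM in DKO_NP and 36.4 in WT_NP, against 11.9 in DKO_ES and 5.24 in WT_ES. The 3 ventral genes summed to 0.431 FPKM in DKO_NP and 0.733 in WT_NP, against 0.455 in DKO_ES and 0.274 in WT_ES. All 4 ventral sums were thus below 1 FPKM. As deposited, the ventral sum was higher in NPCs than in ES cells in wild type only. After scaling, the DKO log2 ratios of Olig2, Nkx6-1 and Nkx2-2, NPCs over ES cells, were 0.096, 0.043 and 0.0016, so that direction in DKO depended on the scaling. The dorsal sum was 40.6 times the ventral sum in DKO_NP and 5.55 times in WT_NP, a ratio within each library that scaling between libraries cannot move. The ventral sums rest on about 33 reads in DKO_NP and 78 in WT_NP.

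**Figure D1:**
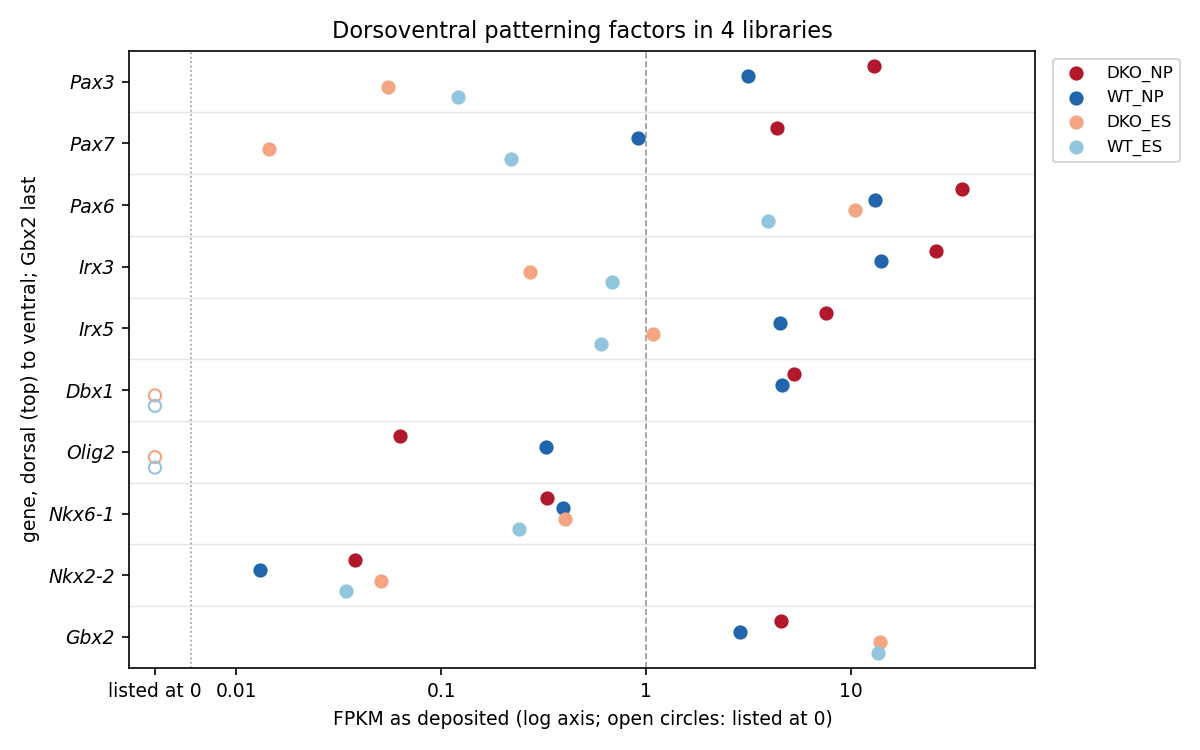
FPKM as deposited of the 10 genes (rows, dorsal to ventral, Gbx2 last) in the 4 libraries (coloured points) on a log axis, with open circles for genes listed at 0 and a dashed line at 1 FPKM. Olig2, Nkx6-1 and Nkx2-2 lie left of 1 FPKM in every library, and Gbx2 is the only gene of the 10 with both ES cell libraries to the right of both NPC libraries.

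Pax3, a paired-box factor of the dorsal neural tube, neural crest and somite, stood at 13.1 FPKM in DKO_NP and 3.15 in WT_NP, and at 0.0553 in DKO_ES and 0.1203 in WT_ES. It was high in DKO_NP, lower in WT_NP and near the limit of detection in ES cells, where the values correspond to about 3.3 and 6.6 reads. Pax7, its close relative with an overlapping dorsal domain, stood at 4.39 FPKM in DKO_NP and 0.914 in WT_NP, and at 0.0144 in DKO_ES and 0.219 in WT_ES. Pax3 was 2.98 times Pax7 in DKO_NP and 3.45 times in WT_NP, against 3.85 times in DKO_ES and 0.550 times in WT_ES, the library in which Pax7 was the higher. The ES cell ratios rest on few reads, with Pax7 at about 1.3 in DKO_ES and 18.3 in WT_ES. In WT_NP Pax7 lay just under the filter of 1 FPKM.

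Pax6, which sets the intermediate and ventral interneuron domains and is needed for eye and forebrain, stood at 34.9 FPKM in DKO_NP and 13.1 in WT_NP, and at 10.5 in DKO_ES and 3.96 in WT_ES. It was above 1 FPKM in all 4 libraries, and within each cell type the DKO library held more. In DKO_ES Pax6 was 190.1 times Pax3 and in WT_ES 32.9 times, against 2.66 times in DKO_NP and 4.16 times in WT_NP. The ES cell ratios rest on about 3.3 and 6.6 reads of Pax3. Pax6 overlaps Elp4, a gene of the Elongator complex, in the RefSeq annotation, and no label records strand-specific sequencing, so reads from their shared stretch cannot be told apart. Elp4 itself stood at 9.64 FPKM in DKO_NP, 5.77 in WT_NP, 9.44 in DKO_ES and 9.15 in WT_ES. The antisense RNA Pax6os1 was below 0.1 FPKM in every library.

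Irx3, an Iroquois homeobox factor that limits the dorsal edge of the motor neuron domain, stood at 26.2 FPKM in DKO_NP and 14.1 in WT_NP, and at 0.272 in DKO_ES and 0.682 in WT_ES. Irx5, its neighbour in the same gene cluster on chromosome 8, stood at 7.59 FPKM in DKO_NP and 4.53 in WT_NP, and at 1.09 in DKO_ES and 0.607 in WT_ES. Both were higher in NPC than in ES cell libraries, and their proportions differed between cell types. Irx3 was 3.45 times Irx5 in DKO_NP and 3.12 times in WT_NP, against 0.250 times in DKO_ES and 1.12 times in WT_ES. The RNA listed as 4933436C20Rik (Crnde), beside Irx5, stood at 2.63 FPKM in DKO_NP, 3.07 in WT_NP, 3.43 in DKO_ES and 2.998 in WT_ES. After scaling it was 1.06-fold higher in NPCs than in ES cells in DKO and 2.01-fold higher in wild type.

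Dbx1, a homeobox factor of the V0 interneuron progenitors, stood at 5.33 FPKM in DKO_NP and 4.65 in WT_NP, and was listed at 0 in DKO_ES and WT_ES. In the order in which the genes are listed here, it was the last dorsoventral gene to exceed 1 FPKM in either NPC library. For a gene of its length, 3 reads correspond to 0.0924 FPKM in DKO_ES and 0.101 in WT_ES. An exact 0 in this table can be a failed estimate, since Lars2, which every cell uses, has 10341 FPKM in DKO_ES but a 0 in WT_ES, so no fold is given against a 0.

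Of the ventral factors, Olig2, which specifies motor neuron and oligodendrocyte progenitors, stood at 0.0627 FPKM in DKO_NP and 0.325 in WT_NP, and was listed at 0 in both ES cell libraries. These NPC values correspond to about 4.1 and 30.8 reads, and Olig2 was 7.01-fold lower in DKO_NP than in WT_NP (interval 2.51 to 26.7) at levels under the filter. Nkx6-1, a homeobox factor of the motor neuron and adjacent domains, stood at 0.3299 FPKM in DKO_NP and 0.395 in WT_NP, and at 0.404 in DKO_ES and 0.240 in WT_ES. After scaling, it was 1.13-fold higher in NPCs than in ES cells in DKO (0.606 to 2.13) and 3.24-fold higher in wild type (1.64 to 6.996). Nkx2-2, the hedgehog-induced factor of the most ventral progenitors, stood between 0.0131 FPKM in WT_NP and 0.0508 in DKO_ES, which is about 1 to 2 reads, so that no difference was detectable at this depth.

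Gbx2, a homeobox factor that sets the front edge of the hindbrain and in mouse ES cells is a target of leukemia inhibitory factor signalling, ran the other way. It stood at 4.55 FPKM in DKO_NP and 2.88 in WT_NP, and at 14.0 in DKO_ES and 13.6 in WT_ES. It was the highest of the 10 genes in both ES cell libraries. Otx2, its forebrain and midbrain counterpart, was also lower in NPCs, at 1.24 FPKM in DKO_NP and 0.827 in WT_NP, against 34.4 in DKO_ES and 29.4 in WT_ES. The 12 hindbrain and cervical genes, mostly Hox genes, summed to 224 FPKM in DKO_NP and 152 in WT_NP, against 2.49 in DKO_ES and 2.80 in WT_ES.

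Knockout and wild-type NPCs were compared to ask how the loss of both methyltransferases bears on the patterning factors after differentiation. Of the 10 genes 7 reached 1 FPKM in DKO_NP or WT_NP, and of these Pax3 and Pax7 were called higher in DKO_NP and none lower. Over all 13601 genes tested, 4.76% were called higher and 7.99% lower. Pax3 was 3.07-fold higher in DKO_NP (2.76 to 3.42) and Pax7 3.55-fold higher (3.03 to 4.18). Their log2 ratios of 1.44 and 1.30 exceeded those of 97.6% and 97.1% of the genes tested. The dorsal pair thus stood furthest apart between genotypes among the 7.

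The intermediate factors differed less between NPC libraries. Pax6 was 1.96-fold higher in DKO_NP (1.86 to 2.07), just under the call at a log2 ratio of 0.94, and passed it as deposited (1.35). Irx3 was 1.37-fold higher (1.28 to 1.47) and Irx5 1.24-fold (1.09 to 1.41). The direction of Dbx1 depended on the scaling, at 1.18-fold lower in DKO_NP after scaling (1.0095 to 1.38) and 1.15 times the WT_NP value as deposited. Gbx2 was 1.17-fold higher, with an interval that included no difference (0.973 to 1.40), and Nkx6-1 was 1.62-fold lower (0.987 to 2.71). By zone, the log2 ratios were 1.44 and 1.30 for the dorsal Pax3 and Pax7, and 0.94, 0.44, 0.27 and -0.21 for the intermediate Pax6, Irx3, Irx5 and Dbx1. The ventral Olig2, Nkx6-1 and Nkx2-2, below the filter, had -0.47, -0.22 and 0.03. The order of genes within a zone is the order of listing, not a measured position. The median over all genes tested was 0.01 after scaling and 0.39 as deposited, and over all 10 members, with no filter, 0.23 after scaling.

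**Figure D2:**
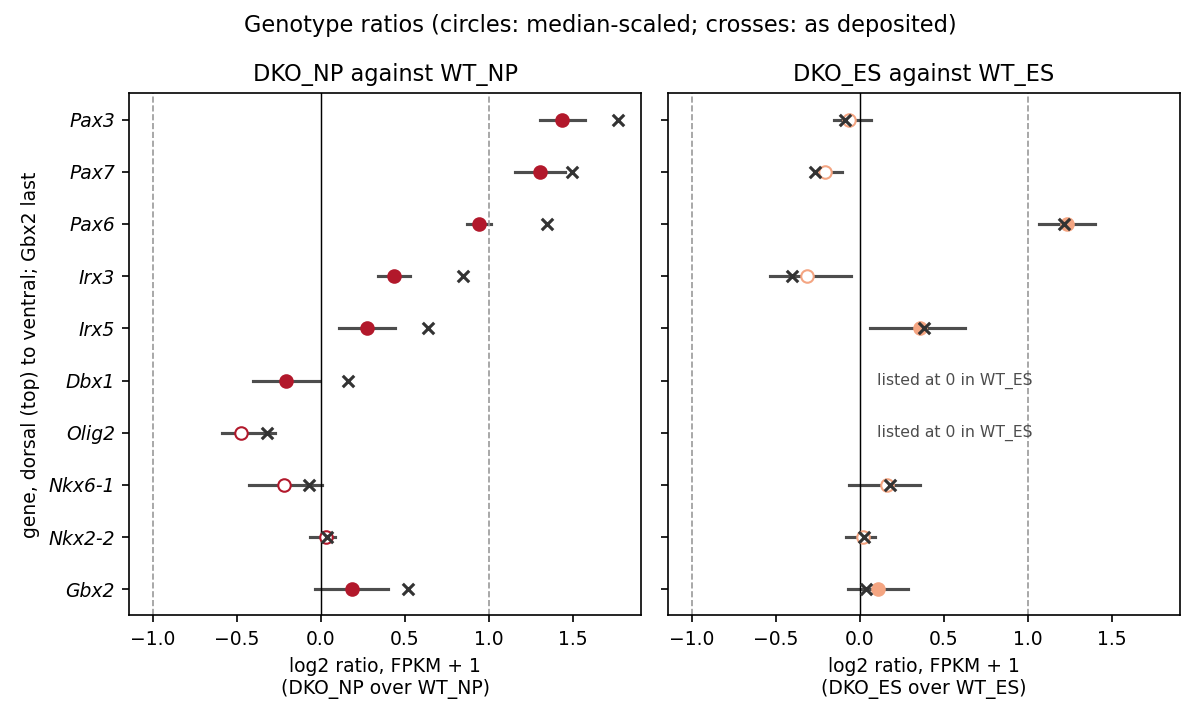
Log2 ratios of FPKM + 1 between genotypes for the 10 genes (rows), in NPC libraries (left) and ES cell libraries (right), as circles after median scaling with 95% counting intervals and as crosses for values as deposited; open circles are genes below 1 FPKM in both libraries, genes listed at 0 in WT_ES have no point, and dashed lines mark a log2 ratio of 1 in size. In NPC libraries Pax3 at 1.44 and Pax7 at 1.30 lie past 1, and in ES cell libraries Pax6 at 1.23 is the only one past 1.

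Markers of several cell types also differed between the NPC libraries, in both directions. Of 10 neural progenitor markers, all at or above 1 FPKM in an NPC library, 8 were called higher in DKO_NP and none lower, with a median log2 ratio of 1.61, as large as the ratios of Pax3 and Pax7. Of 7 endoderm markers 5 were called lower in DKO_NP, with sums of 28.1 FPKM in DKO_NP and 95.5 in WT_NP. Of 6 lateral mesoderm and heart markers that passed the filter 5 were lower, with sums over all 7 of 3.71 FPKM in DKO_NP and 65.6 in WT_NP. Pax3 and Pax7 are also made by neural crest and paraxial mesoderm. The 7 neural crest markers summed to 10.5 FPKM in DKO_NP and 18.1 in WT_NP, and the 9 paraxial mesoderm and myogenic markers to 13.5 in DKO_NP and 21.2 in WT_NP. Of the crest markers 3 passed the filter and 2, Ets1 and Snai2, were called lower. Sox10, Foxd3, Tfap2a and Tfap2b were all below 1 FPKM in both NPC libraries. Their log2 ratios after scaling were -0.05, 0.05, 0.10 and 0.05, though all 4 values were higher in DKO_NP as deposited. Of the paraxial markers 5 passed and 2 were called lower, while Tcf15 was 2.18-fold higher in DKO_NP, at 4.81 FPKM against 1.63 in WT_NP. Tcf15 was higher still in ES cells, at 24.9 FPKM in DKO_ES and 45.8 in WT_ES, so here it is not particular to paraxial mesoderm. Myf5 and Myod1, which define muscle precursors, were below 0.1 FPKM in both NPC libraries, and Sox10, which defines migrating neural crest, was at 0.502 FPKM in DKO_NP and 0.405 in WT_NP. The pluripotency markers were also higher in DKO_NP, with 4 of 10 called higher and 1 lower. In RNA from whole cultures, more cells of a type and more RNA per cell cannot be told apart, and the part of these markers' cell types in the ratios was not tested.

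Other genes of the dorsal neural tube were also higher in DKO_NP. Of 11 genes of the roof plate and dorsal-most progenitors, 9 passed the filter, 5 were called higher and 1 lower, with a median log2 ratio of 1.11. Msx3, whose expression is restricted to dorsal progenitors, had a level of 13.1 FPKM in DKO_NP and 2.30 in WT_NP, and Msx1, a target of bone morphogenetic proteins, at 7.80 in DKO_NP and 1.27 in WT_NP. At the other end were Rspo1, a secreted enhancer of Wnt signalling, at 1.85 FPKM in DKO_NP and 4.11 in WT_NP, and the ligand gene Bmp7 at 9.81 in DKO_NP and 12.4 in WT_NP.

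Of 10 genes of dorsal interneuron progenitors, 6 passed the filter, 4 were called higher in DKO_NP and none lower, with a median log2 ratio of 1.21. All 6 reached 1 FPKM in DKO_NP but only 3 did in WT_NP, and a gene that passed only through DKO_NP could not be called lower. Neurog1, a proneural factor, stood at 9.37 FPKM in DKO_NP and 1.09 in WT_NP, and Olig3, the dorsal relative of Olig2, at 7.499 in DKO_NP and 0.792 in WT_NP. Olig3 was thus higher in the library in which Olig2 was lower. Sp8 and Neurog2 had the lowest ratios of this list, at 0.37 and 0.69, both above 0.

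Of 10 other genes of intermediate and ventral progenitors, 4 passed the filter and 2 were called higher in DKO_NP, with none lower and a median log2 ratio of 0.86. Higher values in DKO_NP were thus not confined to the dorsal lists. The 2 called genes were Irx2, at 6.83 FPKM in DKO_NP and 1.78 in WT_NP, and Prdm8, at 1.93 in DKO_NP and 0.182 in WT_NP. Irx1 stood at 3.52 FPKM in DKO_NP and 1.64 in WT_NP. Nkx6-2, a relative of Nkx6-1 in the ventral progenitors, stood at 1.007 FPKM in DKO_NP and 1.008 in WT_NP.

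Genes of the floor plate and of the hedgehog response showed no single direction. Of 13, 10 passed the filter, 1 was called higher in DKO_NP and 3 lower after scaling, against 3 higher and 2 lower as deposited, and their median log2 ratio was 0.04. Gas1 and Boc, co-receptors that bind Sonic hedgehog, stood at 76.6 and 24.1 FPKM in DKO_NP and at 25.5 and 10.9 in WT_NP. Foxa1 and Foxa2, factors of floor plate and of endoderm, were lower in DKO_NP. They stood at 2.49 and 2.42 FPKM there and at 8.91 and 7.47 in WT_NP. The endoderm markers, a list that includes Foxa2, were mostly lower too. Shh, the ligand gene, named here after its values were seen, stood at 0.128 FPKM in DKO_NP and 0.285 in WT_NP and was listed at 0 in both ES cell libraries.

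**Figure D3:**
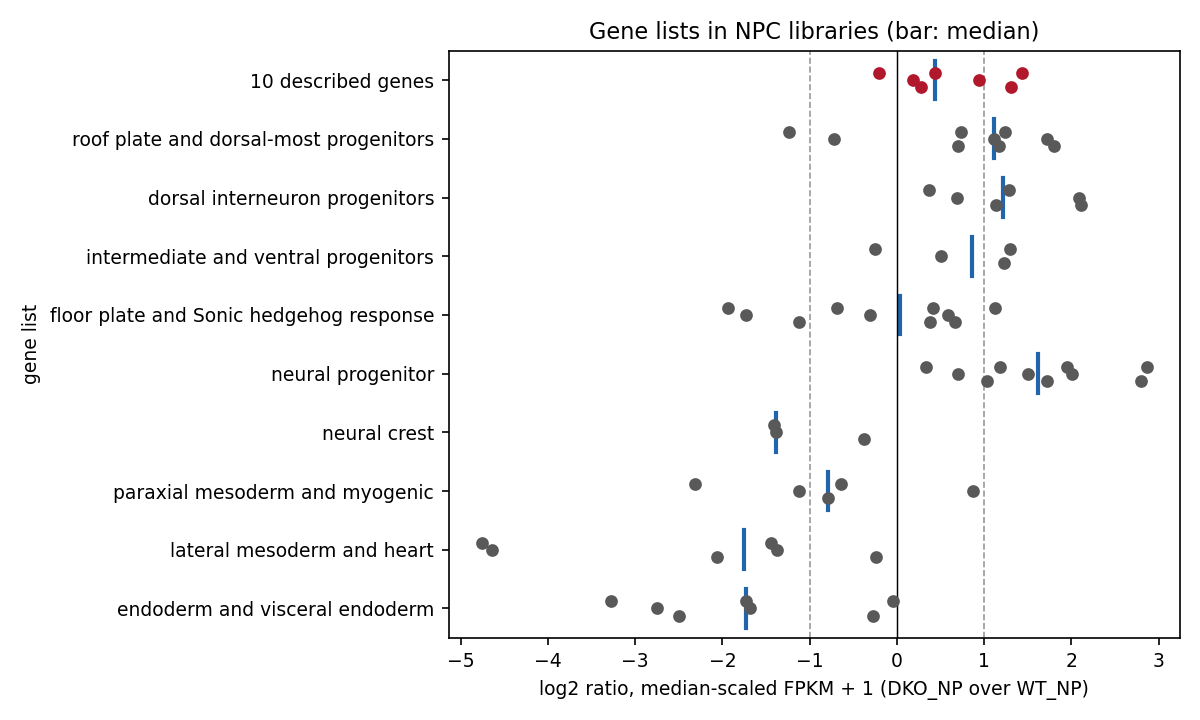
Log2 ratios of median-scaled FPKM + 1 in DKO_NP over WT_NP for the genes that passed the filter of 1 FPKM (points), by list (rows), with the list median as a bar and dashed lines at 1 in size. The medians of the dorsal lists, 1.11 and 1.21, and of the neural progenitor markers, 1.61, lie right of 1, and those of endoderm, -1.73, and lateral mesoderm, -1.75, lie left of -1. The median of the intermediate and ventral progenitor list is 0.86.

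In ES cells, before differentiation, Pax6 was the only one of the 10 genes called different between genotypes. It was 2.80-fold higher in DKO_ES than in WT_ES (2.42 to 3.24), a log2 ratio of 1.23 that exceeded those of 98.2% of the genes tested. Of 13596 genes 2.56% were called higher and 1.15% lower, and 3 of the 10 members passed the filter. Irx5 was 1.89-fold higher in DKO_ES (1.11 to 3.32), and Gbx2 was 1.08-fold higher with an interval that included no difference (0.948 to 1.24). The remaining genes were below 1 FPKM in both ES cell libraries. Among them Irx3 was 2.37-fold lower in DKO_ES (1.15 to 5.21), and Pax7 was 14.5-fold lower (2.71 to 291) on about 1.3 and 18.3 reads. The neural progenitor markers did not move with Pax6 here, with none of 8 called in either direction and a median log2 ratio of 0.11. Of 6 feeder fibroblast markers 4 were called lower in DKO_ES, and of 10 pluripotency markers 3, and their part in the Pax6 ratio was not tested.

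The dorsal and intermediate factors were higher after differentiation in both genotypes. The comparisons DKO_NP with DKO_ES and WT_NP with WT_ES share no library, and both rest on the same median scaling. In DKO cells 7 genes passed the filter, 6 of which were called higher and 1, Gbx2, lower. Over 14050 genes, 11.8% were called higher and 11.2% lower. In wild-type cells 6 passed, with 5 called higher and Gbx2 again lower, against 16.2% higher and 11.3% lower of 14086 genes. Only 3 of the 10 genes reached 1 FPKM in DKO_ES and 2 in WT_ES. The others that passed did so only through the NPC library and could not be called lower. Both counts of higher genes include Dbx1, which was listed at 0 in ES cells. The difference of 1 in the counts is Pax7, which was under 1 FPKM in WT_NP. Medians over all 10 members, with no filter, were log2 ratios of 2.20 in DKO and 1.69 in wild type, against 0 over all genes.

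With the pseudocount of 1 FPKM, the log2 ratio of Irx3 was 4.62 in DKO (132.5-fold, 75.04 to 260.2) and 3.86 in wild type (40.8-fold, 27.9 to 62.2). Pax3 stood at 3.88 in DKO (326-fold, 117 to 1428) and 2.38 in wild type (51.5-fold, 24.4 to 133). By fold without a pseudocount Pax3 was thus above Irx3 in both genotypes, with wide intervals that overlap. Pax7 was 422-fold higher in DKO (90.0004 to 8018) and 8.22-fold in wild type (5.09 to 14.1). Pax6 was higher by 4.58-fold in DKO (4.23 to 4.96) and by 6.52-fold in wild type (5.72 to 7.47). Irx5 was 9.60-fold higher in DKO (7.03 to 13.4) and 14.7-fold in wild type (9.57 to 23.6). Gbx2 was 2.22-fold lower in DKO (1.90 to 2.60) and 2.39-fold lower in wild type (2.03 to 2.83), and its DKO log2 ratio of -1.02 missed the call when libraries were scaled to their 75th percentile.

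The 2 differentiation ratios differed most for the dorsal pair. By arithmetic their difference equals the NPC genotype log2 ratio minus the ES cell one, so it is not a result separate from those. For Dbx1, listed at 0 in both ES cell libraries, it is the NPC genotype ratio alone. The DKO log2 ratio minus the wild-type one was 1.499 for Pax3, 1.51 for Pax7 and 0.75 for Irx3. For Pax6, Irx5 and Dbx1 it was -0.29, -0.09 and -0.21, and as deposited these 3 turned positive, at 0.13, 0.26 and 0.16. The Pax6 folds had intervals that did not overlap after scaling, and as deposited both were 3.32. The difference between ratios was not tested, with 1 library per group.

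**Figure D4:**
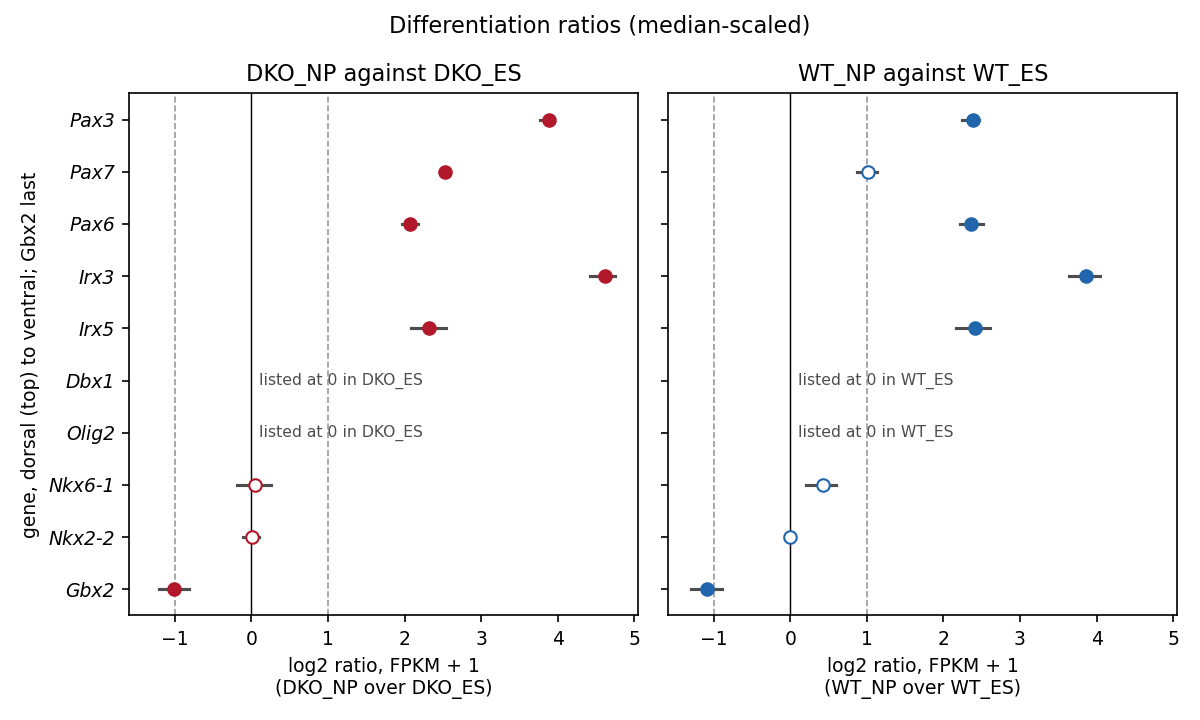
Log2 ratios of median-scaled FPKM + 1 between NPC and ES cell libraries for the 10 genes (rows), in DKO cells (left) and wild-type cells (right), with 95% counting intervals; open circles are genes below 1 FPKM in both libraries, and genes listed at 0 in ES cells have no point. On this scale Irx3 is at 4.62 in DKO and 3.86 in wild type, the furthest right of the points drawn, Gbx2 lies below -1 in both, and Nkx6-1 and Nkx2-2 lie within 0.43 of 0.

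The other genes of the dorsal lists were mostly higher after differentiation. Of the roof plate and dorsal-most list, 7 of 10 that passed the filter were called higher in DKO and 6 of 7 in wild type, with none called lower. Rspo1 was an exception in direction, at a log2 ratio of 1.42 in wild type and -0.50 in DKO. Of the dorsal interneuron progenitors all 6 that passed were higher in DKO and all 3 in wild type. No gene of that list reached 1 FPKM in either ES cell library. Those counted thus passed the filter only through the NPC library and could not have been called lower. Wnt1, a roof plate ligand, was listed at 0 in both ES cell libraries and stood at 6.80 FPKM in DKO_NP and 1.96 in WT_NP. Of other intermediate and ventral progenitor genes, 3 of 6 were higher and 1 lower in DKO, and 1 of 4 higher and 1 lower in wild type. Foxn4, a factor of V2 interneuron progenitors, was the lowest of these in both. It had 0.506 FPKM in DKO_NP against 2.79 in DKO_ES, and 0.428 FPKM in WT_NP against 3.33 in WT_ES.

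Close relatives of the members were mostly low. Of 22, 6 reached 1 FPKM in DKO_NP and 4 in WT_NP, against 6 in DKO_ES and 4 in WT_ES. Between NPC libraries 2 of them, Olig3 and Irx2, were called higher in DKO_NP and none lower. Gbx1, the relative of Gbx2, had the lowest ratio of the list, at -0.36. Of 6 genes beside or opposite the members that passed the filter, none was called higher in DKO_NP and 1, Sgpp2, was called lower after scaling, against 1 higher and none lower as deposited. Htatip2, which had the highest ratio of these, was 2.12-fold higher in DKO_NP, at a log2 ratio of 0.84.

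Over 17424 named protein-coding genes, those with the most similar levels in the 4 libraries, by Euclidean distance of log2(scaled FPKM + 1), were found for members that reached 5 FPKM. Nearest to Pax3 were Msx3 (distance 0.42) and the neural POU factor gene Pou3f2 (0.43). Nearest to Irx3 were the cervical Hox genes Hoxa4 (0.63) and Hoxc4 (0.64), and nearest to Pax6 were the Wnt receptor gene Fzd3 (0.66) and Dtx4 (0.83). Irx5 lay nearest to Smarca2 (0.19) and Mid1 (0.23). Dbx1 lay nearest to the endoderm genes Afp (0.48) and Sox17 (0.49). With 4 libraries many genes share a profile, and the distance describes these libraries only.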

How the data were processed

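RNA from 4 mouse cultures, 1 library each, was sequenced single-end after rRNA depletion, per the labels' protocols. The authors deposited FPKM per gene symbol in 1 table; 18 blank rows were left out and 0 columns were unmapped. Bowtie, TopHat and build mm9 are named, per the submitters' processing notes. What computed FPKM, on which annotation and with what handling of multiply mapped reads, is not given in the sources used here. With no strand stated, overlapping antisense genes cannot be told apart.

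Median scaling divided the libraries by 0.908 (DKO_NP), 0.671 (WT_NP), 1.25 (DKO_ES) and 1.32 (WT_ES). Log2 ratios used a pseudocount of 1 FPKM and genes that reached 1 FPKM in at least 1 of the libraries compared. Relative denominators came from the commonest ratio of low values between libraries, 1.82 (DKO_NP), 2.63 (WT_NP) and 1.09 (DKO_ES) times that of WT_ES. Lengths of the longest coding transcript in GENCODE M21, found for 20846 symbols (89.7%), made them approximate reads. Of 3189 low values of genes with 1 transcript, 37.4% were whole within 0.1 read, so reads and intervals are rough. The calculation was tested on simulated data. Python 3.11.15, NumPy 2.4.6, pandas 2.3.3 and SciPy 1.17.1 were used.

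The members, the lists and the ways of comparing them were chosen with earlier results of these data known. The text names the members in every library and, of each list, at most 4 genes, taken from the pairs of highest and lowest ratios, and a few others chosen after their values were seen (Shh, Sox10, Foxd3, Tfap2a, Tfap2b, Ets1, Snai2, Tcf15, Myf5, Myod1). The genes most similar to Gbx2 in level are not reported here. Coordinates are from RefSeq (GRCm38.p6) and apply to sequences only, not to the mm9 values.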

Additional observations from a re-analysis of the deposited data

Results flagged for a closer look

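Pax7 and Irx3 had genotype differences of opposite direction in NPCs and in ES cells, each with a counting interval that left out no difference. Pax7 was 3.55-fold higher in DKO_NP than in WT_NP and 14.5-fold lower in DKO_ES than in WT_ES, a difference of 5.68 between the log2 ratios of scaled FPKM, with no pseudocount. The ES cell values of Pax7 rest on about 1.3 and 18.3 reads. Irx3 was 1.37-fold higher in DKO_NP than in WT_NP and 2.37-fold lower in DKO_ES than in WT_ES, a difference of 1.70, on about 11.6 reads in DKO_ES and 26.7 in WT_ES. Each direction rests on 1 library per group, and the difference between cell types was not tested.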

How the results depend on the processing

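As deposited, without median scaling, the all-gene counts were 1382 higher and 531 lower (648 and 1087 after scaling) for DKO_NP against WT_NP. They were 901 and 5876 (2287 and 1592) for WT_NP against WT_ES, and 1102 and 3067 (1656 and 1570) for DKO_NP against DKO_ES. The median log2 ratio of members that passed the filter was then 0.85 (0.44 after scaling), 1.84 (2.40) and 2.41 (2.53) in the same 3 comparisons. As deposited, 3 members were higher in DKO_NP than in WT_NP, Pax6 being the third. With a pseudocount of 0.1 FPKM, 639 genes were higher and 334 lower (348 and 156) in DKO_ES against WT_ES, and the members' median was 0.79 (0.36) there, 4.13 in WT_NP against WT_ES and 5.47 in DKO_NP against DKO_ES. With no filter the members' median was 0.23, 0.010, 1.69 and 2.20 for DKO_NP against WT_NP, DKO_ES against WT_ES, WT_NP against WT_ES and DKO_NP against DKO_ES. With a filter of 5 FPKM, 384 genes were higher and 595 lower in DKO_NP against WT_NP, 1322 were higher in WT_NP against WT_ES and 1097 in DKO_NP against DKO_ES. Members called higher were then 1 in DKO_NP against WT_NP and 2 in WT_NP against WT_ES, and the members' median was 0.67 in DKO_ES against WT_ES and 2.55 in DKO_NP against DKO_ES. Scaled to the 75th percentile, Gbx2 missed the call in DKO_NP against DKO_ES, leaving 0 members lower. Of 150 single-gene values under another scaling or pseudocount, 70 moved beyond their counting interval. Some values of genes not called changed sign. That of Dbx1 in DKO_NP against WT_NP was -0.21 after median scaling and 0.16 as deposited. Except where fewer genes were tested, the cause was not tested. No paired analysis was possible because each group holds 1 library. Depth limits Nkx2-2 in every library, Olig2 in DKO_NP, and Pax3 and Pax7 in ES cells, where values rest on a few reads.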

Other observations

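Genes that mark neurons leaving each domain were low in both NPC libraries. Of 24 postmitotic spinal neuron identity genes, 7 reached 1 FPKM in DKO_NP and 5 in WT_NP. Of 8 that passed the filter 2 were higher and 2 lower in DKO_NP. Pou4f1, a factor of dorsal sensory interneurons, stood at 3.25 FPKM in DKO_NP and 0.431 in WT_NP, and Lhx5 at 1.45 in DKO_NP and 0.0764 in WT_NP. Lhx1 stood at 1.90 FPKM in DKO_NP and 4.33 in WT_NP, and Isl1, a motor neuron gene that lateral mesoderm also makes, at 0.452 in DKO_NP and 1.93 in WT_NP. Of 12 genes of forebrain, midbrain and isthmus, 5 passed the filter and 2, En2 and Wnt1, were higher in DKO_NP.

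Among hindbrain and cervical genes, Hoxd4 stood at 45.9 FPKM in DKO_NP and 11.1 in WT_NP, and Hoxb1 at 7.23 in DKO_NP and 14.6 in WT_NP. Markers of other tissues that use these factors were mostly low. Of 6 pancreatic endocrine genes, of a tissue that also needs Pax6, Nkx6-1 and Nkx2-2, 2 reached 1 FPKM in DKO_NP and none in WT_NP, with sums of 6.69 FPKM in DKO_NP and 1.02 in WT_NP. The 6 oligodendrocyte lineage genes, a lineage that Olig2 specifies, summed to 8.82 FPKM in DKO_NP and 7.93 in WT_NP. The 8 feeder fibroblast genes summed to 39.9 FPKM in DKO_NP and 69.8 in WT_NP, and to 21.5 in DKO_ES and 78.7 in WT_ES.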
